A study of Homo sapiens with 6 samples.

Results

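The genes described here make heme, take it apart and move it, in U87MG cells, an established human glioblastoma cell line. They are 10 of the 65988 gene identifiers in the series and were chosen by name, with earlier results of these data known. 5 belong to breakdown and heme transport (HMOX1, HMOX2, BLVRA, BLVRB and SLC48A1) and 5 to synthesis (ALAS1, ALAD, UROD, CPOX and FECH). The genotype of all cells is given as wild type. 3 libraries came from vehicle-treated cells (control) and 3 from cells given 2 µM RSL3, an inhibitor of the lipid peroxide-reducing enzyme GPX4, for 24 h. RNA was sequenced in bulk, and the values are raw read counts per gene. The labels do not say whether the libraries of a group came from separate cultures. The study's general methods speak of biologically independent experiments or samples without saying which holds for RNA-seq, so p-values measure the spread between these libraries, which may be technical.

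Heme is an iron-holding ring that cytochromes, catalase and many other enzymes need. Its synthesis starts in the mitochondrion with ALAS1, the rate-limiting enzyme outside red blood cell precursors, runs through the cytosol, where ALAD, UROS and UROD act, and ends in the mitochondrion with CPOX, PPOX and FECH, the last of which inserts the iron. Heme oxygenases (the inducible HMOX1 and the constitutive HMOX2) open the ring and release iron, carbon monoxide and biliverdin, which the biliverdin reductase BLVRA reduces to bilirubin. BLVRB, the other biliverdin reductase by name, also reduces flavins. SLC48A1 (HRG-1) carries heme out of endosomes and lysosomes. HMOX1 is a classic target of the transcription factor NRF2, is repressed by the heme sensor BACH1, and is known in ferroptosis for the iron it sets free.

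Total counts per library lay between 27813462 and 43306335. Of the genes tested in this comparison, 25.6% were differentially expressed in edgeR's quasi-likelihood test at an adjusted p under 0.05, 12.9% upregulated and 12.7% downregulated. Among the markers of the labelled cell type, VIM, CD44 and CHI3L1 were abundant, whereas SOX2, AQP4 and S100B had at most 2 counts in any library. The summed normalized count of the 9 astroglial and glioma markers was 98632 to 100200 in control and 77912 to 81931 in RSL3-treated libraries. Most of it came from VIM (mean 68288 in control and 55891 in RSL3-treated libraries) and CD44 (24691 and 18878). Of its 6 genes tested, 3 fell: VIM, CD44 and CHI3L1. GFAP, NES and OLIG2 were not called, with log2 fold changes of 0.40, 0.25 and 0.13 (edgeR unadjusted p of GFAP 0.0210). All 9 erythroid markers, hemoglobin genes included, had at most 7 counts in any library, and none could be tested. Their summed normalized count was 0.924 to 1.57 in control and 2.08 to 6.99 in RSL3-treated libraries. Of 7 macrophage and microglia markers 4 had at most 6 counts, among them PTPRC and AIF1, and none of the 3 tested was called by edgeR (1, TMEM119, had an unadjusted p under 0.05). Their summed normalized count was 391.84 to 436.62 in control and 326.06 to 376.36 in RSL3-treated libraries. Of 6 endothelial and neuronal markers VWF and SNAP25 fell and SYT1 rose. Their sum was 1095.3 to 1204.1 in control and 1159.9 to 1189.7 in RSL3-treated libraries, and the part of these shifts in the results was not tested. In bulk RNA, fewer cells of a type and less RNA per cell cannot be told apart.

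RefSeq's promoter table (GRCh38.p14, 250 bases before to 50 after the start) held 9 of the 10 genes, all but HMOX1. 3 of these promoters are printed 5′ to 3′: SLC48A1, the transporter that rose most among the members with a promoter here; ALAS1, the entry to synthesis; and FECH, its last enzyme. Capitals mark matches, on either strand, to the antioxidant response element core TGACNNNGC, the E-box CACGTG, the NRF1 site or the AP-1 site TGANTCA, of which the first and the last can overlap. SLC48A1 is at chr12:47772988-47773287 (plus strand), ALAS1 at chr3:52197833-52198132 (plus strand) and FECH at chr18:57586653-57586952 (minus strand).
SLC48A1: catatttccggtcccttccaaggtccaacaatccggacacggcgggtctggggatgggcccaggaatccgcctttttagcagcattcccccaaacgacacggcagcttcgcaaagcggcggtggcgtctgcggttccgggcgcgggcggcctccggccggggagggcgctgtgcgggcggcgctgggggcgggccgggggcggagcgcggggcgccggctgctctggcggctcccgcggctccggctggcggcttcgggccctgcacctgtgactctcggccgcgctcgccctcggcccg
ALAS1: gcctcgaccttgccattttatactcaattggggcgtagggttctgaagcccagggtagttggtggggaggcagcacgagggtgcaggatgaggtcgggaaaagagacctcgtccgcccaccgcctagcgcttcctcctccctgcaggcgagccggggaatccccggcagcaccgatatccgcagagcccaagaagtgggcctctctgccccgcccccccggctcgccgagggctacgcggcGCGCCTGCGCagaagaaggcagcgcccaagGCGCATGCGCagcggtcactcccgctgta
FECH: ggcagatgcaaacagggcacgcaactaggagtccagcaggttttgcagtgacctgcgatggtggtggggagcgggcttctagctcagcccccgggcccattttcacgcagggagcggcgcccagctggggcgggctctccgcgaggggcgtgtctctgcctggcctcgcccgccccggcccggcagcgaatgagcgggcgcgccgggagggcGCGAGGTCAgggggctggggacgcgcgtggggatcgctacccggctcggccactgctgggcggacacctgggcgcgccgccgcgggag

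The SLC48A1 promoter held none of these 4 motifs in this window. ALAS1 held 2 matches to the NRF1 site, at -9 and +22 from the start, and 5.78% of all 35116 promoters in the table held at least 1. FECH held 1 match to the antioxidant response element core, at -38, a motif present in 13.3% of all promoters, and no other gene of the 9 held it. HMOX2 has 2 promoters in the table, and the first held the E-box at -28, which 7.26% of promoters held. The AP-1 site, held by 7.71% of promoters, was found in none of the 9. The 3 printed promoters were rich in G and C (74.7% in SLC48A1, 67.0% in ALAS1 and 74.0% in FECH, against a median of 58.7% over all promoters).

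The larger increases lay among the breakdown and transport genes. HMOX1, SLC48A1 and BLVRB were upregulated and BLVRA was downregulated in RSL3-treated cells, whereas among the synthesis genes ALAS1 was upregulated, ALAD and CPOX were downregulated, and UROD and FECH were not called. In all, 7 of the 9 members tested were called, 4 higher and 3 lower, beside 25.6% of all genes tested. The tenth, HMOX2, was under the filter on low counts. The median log2 fold change was 0.38 over the 4 breakdown and transport genes tested and -0.05 over the 5 synthesis genes, a difference of 0.43, beside a median of -0.0044 over all genes tested. Control and treated libraries were fully apart in 7 of the 9 genes, as in 38.6% of all genes tested.

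**Figure D1:**
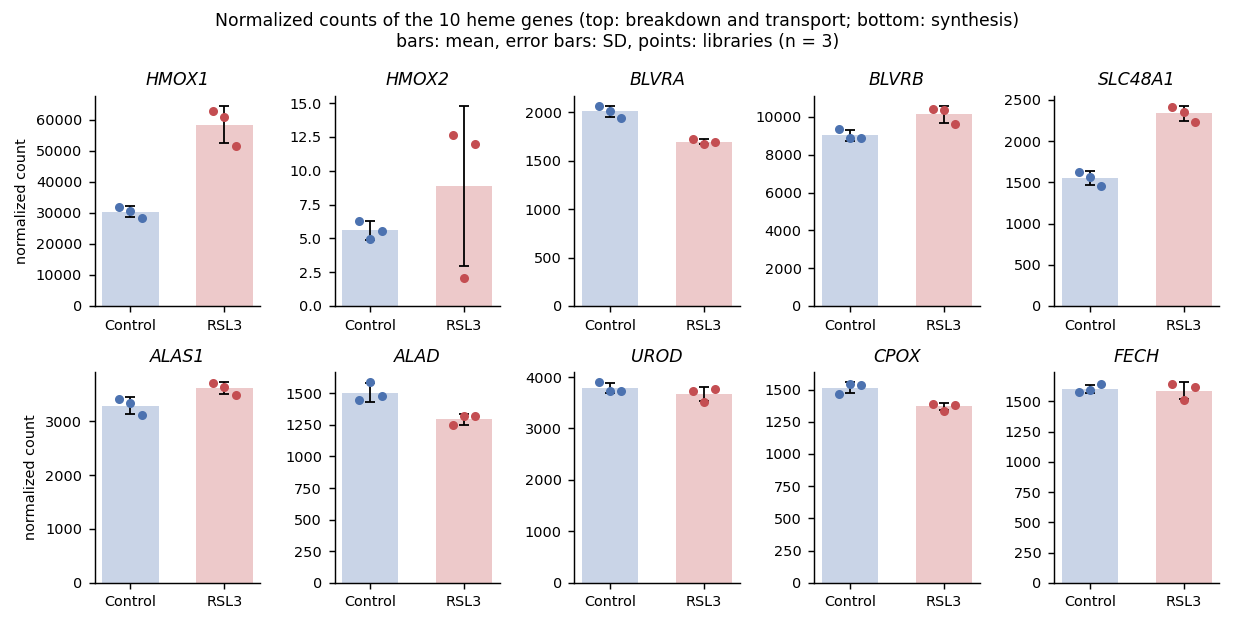
Normalized count (y axis, from 0) of each of the 10 genes in control and RSL3-treated cells, with breakdown and transport genes in the top row and synthesis genes in the bottom row. Bars are means, error bars SD and points the 3 libraries of each group. HMOX1 rises from a mean of about 30304 to 58447 normalized counts, and HMOX2 lies between 2.08 and 12.6 normalized counts in every library.

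HMOX1 (ENSG00000100292, chromosome 22 of GRCh38 from 35380361 to 35394214, 5 exons in the canonical transcript) had the largest change of the 9. Its normalized counts (reads brought to a common library size) were 31934, 30539 and 28438 in the control libraries and 62905, 60940 and 51498 in the RSL3-treated libraries. Every treated library stood above every control library, and the treated libraries were the more spread. The log2 fold change was 0.95 (standard error 0.05, 95% interval 0.84 to 1.06, edgeR adjusted p = 3.72e-11). By size of increase HMOX1 was number 162 of the 16105 genes tested, and by p it was number 14. It held 0.0840% to 0.0939% of all reads in control libraries and 0.151% to 0.183% in RSL3-treated libraries. Ranked by reads per kilobase of canonical transcript among 15682 genes, it moved from places 88 to 95 in control libraries to places 36 to 44 in treated libraries.

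SLC48A1 (ENSG00000211584, chromosome 12 from 47753916 to 47782751) had the next largest change. Its normalized counts were 1630, 1561 and 1458 in control libraries and 2417, 2357 and 2236 in RSL3-treated libraries, so the groups were far apart. The log2 fold change was 0.59 (standard error 0.05, 95% interval 0.49 to 0.69, edgeR adjusted p = 5.88e-09), an increase of 50.6%. Exons of HDAC7 and RAPGEF3 cover 2.30% of its exon bases in GENCODE v44, and counting without strand cannot assign reads there.

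The biliverdin reductases went in opposite directions. BLVRA (ENSG00000106605, chromosome 7 from 43758680 to 43807342), which makes the alpha isomer of bilirubin, had 2066, 2018 and 1946 normalized counts in control libraries and 1725, 1674 and 1697 in RSL3-treated libraries. It fell by 15.5% (log2 fold change -0.24, 95% interval -0.33 to -0.16, edgeR adjusted p = 0.000144). BLVRB (ENSG00000090013, chromosome 19 from 40447765 to 40465764), which also reduces flavins, had 9357, 8865 and 8878 normalized counts in control libraries and 10446, 10370 and 9630 in treated libraries. It rose by 12.3% (log2 fold change 0.17, 95% interval 0.09 to 0.24, edgeR adjusted p = 0.00101). Neither gene shares exon bases with another gene, and in neither did the groups overlap. The log2 ratio of BLVRB to BLVRA counts was 2.18, 2.14 and 2.19 in control libraries and 2.60, 2.63 and 2.50 in treated libraries, a difference of 0.41 (two-sided exact permutation test, p = 0.1, adjusted p = 0.15 over 3 ratios). With 3 libraries against 3, 0.1 is the smallest p this test can give.

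HMOX2 (ENSG00000103415, chromosome 16 from 4474690 to 4510347) was barely counted. It had 8, 4 and 6 reads in control libraries and 11, 2 and 12 in RSL3-treated libraries, with 95% exact Poisson intervals, which cover counting error only, from 1.09 to 10.2 at 4 reads and from 6.20 to 21.0 at 12 reads. The groups overlapped, and the gene was not tested. The low count was shared by its surroundings: HMOX2 sits in a run of 10 neighbouring protein-coding genes, from GLIS2 to C16orf96 (chromosome 16 from 4314761 to 4600758), in which no gene passed 38 reads in any library. DNAJA3, a mitochondrial chaperone gene in this run, had 20 to 38 reads and NMRAL1, which overlaps HMOX2, had 0 to 6. CORO7 and PAM16, both with almost no reads, share exons with the readthrough gene CORO7-PAM16, whereas 3.05% of the exon bases of HMOX2 are shared. The next gene past the run, UBALD1, had 247 to 450 reads. The run was looked for after the HMOX2 values were seen, and its cause was not tested, so the HMOX2 count is given as listed and not as its expression. The log2 ratio of HMOX1 to HMOX2 counts was 12.4 ± 0.163 (SD, n = 3) in control and 13.1 ± 1.54 (SD, n = 3) in treated libraries (exact permutation test, p = 1), and without RSL3 replicate 2, with its 2 reads, the difference between the groups changed sign, from 0.65 to -0.24.

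**Figure D2:**
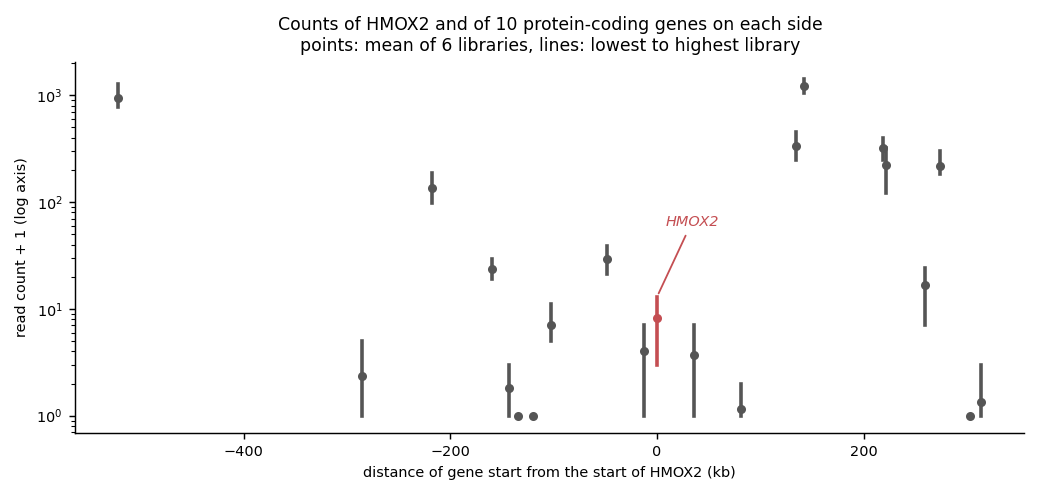
Read count plus 1 (log axis) of HMOX2 and of the 10 protein-coding genes on each side, against the distance of each gene's start from the start of HMOX2 in kb. Points are means of the 6 libraries and lines run from the lowest to the highest library. HMOX2, at 2 to 12 reads, sits in a run of 10 genes with at most 38 reads in any library. TFAP4 on the left has at least 98 reads, and UBALD1 and MGRN1 on the right have at least 247 and 1038.

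Among the synthesis genes, the changes were small and of both signs. ALAS1 (ENSG00000023330, chromosome 3 from 52198086 to 52214327) had 3419, 3337 and 3114 normalized counts in control libraries and 3712, 3641 and 3494 in RSL3-treated libraries, which do not overlap but lie close together. It rose by 9.86% (log2 fold change 0.14, 95% interval 0.05 to 0.22, edgeR adjusted p = 0.0135). The call was lost without control replicate 3 (adjusted p = 0.0836), RSL3 replicate 1 (0.0740) or RSL3 replicate 2 (0.0537), and in DESeq2 with 2 surrogate variables (0.0925).

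ALAD (ENSG00000148218, chromosome 9 from 113386312 to 113401290), which joins the products of ALAS1 into the first pyrrole, had 1443, 1587 and 1481 normalized counts in control libraries and 1246, 1317 and 1322 in RSL3-treated libraries. It fell by 13.6% (log2 fold change -0.21, 95% interval -0.31 to -0.11, edgeR adjusted p = 0.00292), and the groups did not overlap. It was the 1 synthesis gene called in edgeR with each library left out in turn and in DESeq2 with 0, 1 or 2 surrogate variables, with a largest adjusted p of 0.0357 over all alternatives.

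CPOX (ENSG00000080819, chromosome 3 from 98579446 to 98593648), an oxidase of the mitochondrial part, had 1469, 1541 and 1536 normalized counts in control libraries and 1389, 1334 and 1383 in RSL3-treated libraries. It fell by 9.61% (log2 fold change -0.15, 95% interval -0.24 to -0.05, edgeR adjusted p = 0.0225). The call was lost in DESeq2 without surrogate variables (adjusted p = 0.0570), with 1 (0.0943) and with 2 (0.217), and in edgeR without control replicate 2 (0.0749), control replicate 3 (0.0785) or RSL3 replicate 2 (0.109).

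UROD (ENSG00000126088, chromosome 1 from 45010950 to 45015575), which decarboxylates uroporphyrinogen, had 3896, 3723 and 3727 normalized counts in control libraries and 3720, 3515 and 3761 in RSL3-treated libraries. FECH (ENSG00000066926, chromosome 18 from 57544377 to 57586732) had 1582, 1593 and 1644 in control libraries and 1641, 1514 and 1616 in treated libraries. In both the groups overlapped, with log2 fold changes of -0.05 (95% interval -0.12 to 0.03, edgeR adjusted p = 0.403) and -0.01 (95% interval -0.11 to 0.08, edgeR adjusted p = 0.859). Exons of HECTD3 cover 9.31% of the exon bases of UROD, and those of ENSG00000285635, an identifier of the annotation that the count files do not list, cover 5.16% of those of CPOX.

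**Figure D3:**
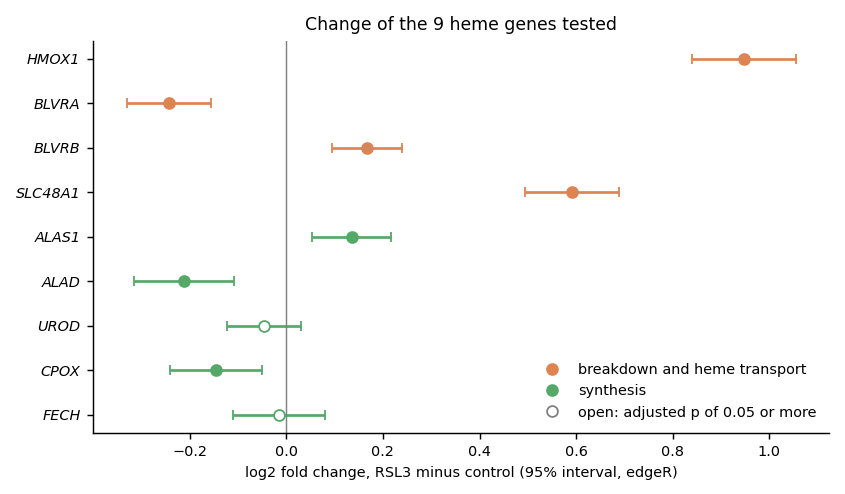
Log2 fold change, RSL3 minus control, of the 9 genes tested, with 95% intervals from edgeR. Filled points have an adjusted p under 0.05. HMOX1 (0.95) and SLC48A1 (0.59) stand apart on the right, BLVRA (-0.24) is the one breakdown gene on the left, and the synthesis genes lie between -0.21 and 0.14.

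Summed over the 5 synthesis genes, the normalized count was 11809, 11780 and 11501 in control libraries and 11707, 11321 and 11575 in RSL3-treated libraries, and the groups overlapped. UROD and ALAS1, the most counted of the 5, weigh most in this sum. The mean log2 level of the 4 breakdown and transport genes, set to 0 in control cells, was 0.42, 0.39 and 0.29 in the treated libraries, and 0.21, 0.18 and 0.13 with HMOX1 left out. In the control libraries it was 0.061, 0.001 and -0.062, and 0.055, -0.003 and -0.052 with HMOX1 left out. For the synthesis genes the same mean was -0.04, -0.08 and -0.05 in treated libraries. It was -0.005, 0.018 and -0.013 in control libraries, so by this mean, unlike the sum, the groups did not overlap. The log2 ratio of HMOX1 to ALAS1 counts, the entry to breakdown against the entry to synthesis, was 3.22, 3.19 and 3.19 in control libraries and 4.08, 4.07 and 3.88 in treated libraries. It did not overlap between the groups (difference 0.81, exact permutation test, p = 0.1, the smallest it can give, adjusted p = 0.15).

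Levels of different genes were compared as RPKM (reads per kilobase of canonical transcript, scaled to sequencing depth), computed here from the counts. In control cells the order was HMOX1 (572 ± 33.2 RPKM, SD, n = 3), BLVRB (332 ± 10.3), UROD (93.0 ± 2.42), BLVRA (54.9 ± 1.65), ALAS1 (40.6 ± 1.95), CPOX (16.4 ± 0.434), SLC48A1 (15.3 ± 0.849), ALAD (14.1 ± 0.697) and FECH (6.13 ± 0.126). HMOX2 was left out of the order, since its count is not read as its expression. The libraries of CPOX and SLC48A1 overlapped, as did those of SLC48A1 and ALAD, and all other neighbours in this order were apart. In RSL3-treated cells HMOX1 stood at 1103 ± 115 RPKM, 2.96 times BLVRB, against 1.73 times in control cells. SLC48A1 (23.0 ± 0.908 RPKM) was then above CPOX (14.8 ± 0.322 RPKM), whose libraries it no longer overlapped, and BLVRA (46.4 ± 0.703 RPKM) overlapped ALAS1 (44.7 ± 1.37 RPKM). With the length of all annotated exons in place of the canonical transcript, a choice made after seeing the data, UROD fell to the fifth place in control cells at 27.5 RPKM and ALAS1 took the third at 38.1 RPKM. By that length HMOX1 and BLVRB stood at 385 and 164 RPKM in control and 744 and 185 in RSL3-treated cells. BLVRA (27.4 RPKM) then lay below ALAS1 (41.8) in treated cells without overlap. Ratios between genes therefore depend on the length used.

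**Figure D4:**
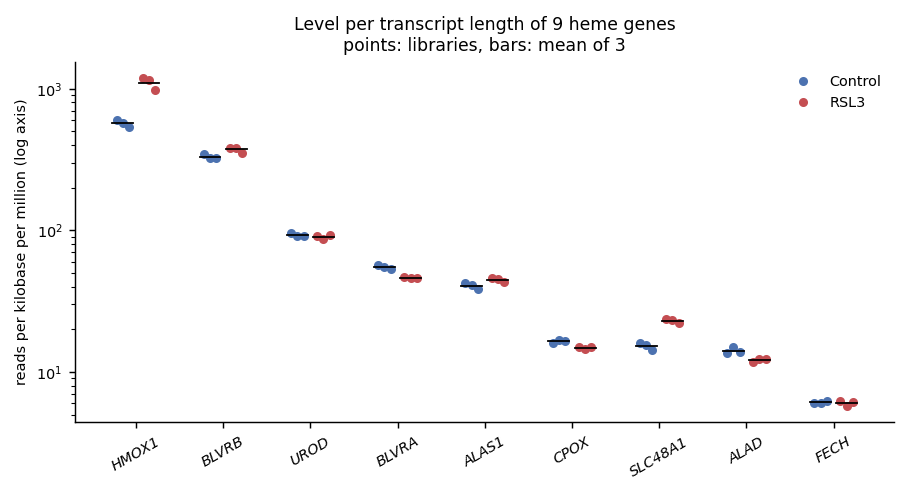
Level of 9 genes (HMOX2 left out) in RPKM (reads per kilobase of canonical transcript, scaled to sequencing depth, log axis), in the order of the control means. Points are libraries and bars the means of 3. HMOX1, at 572 RPKM in control and 1103 in RSL3-treated cells, is highest of the 9 in both groups and FECH, at 6.13 and 6.07 RPKM, lowest.

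The genes most like HMOX1 over the 6 libraries, by the root mean square difference of log2 levels set to 0 in control cells, among 11233 genes with a mean of at least 100 normalized counts, were SRXN1 (0.0440), IRF5 (0.0469), PAX8-AS1 (0.0533), OSGIN1 (0.0745) and PAX8 (0.0785). SRXN1, which encodes sulfiredoxin, rose from 985 to 1888 mean normalized counts, a log2 fold change of 0.93 (edgeR adjusted p = 1.04e-10). Likeness was measured on the same libraries that give the change, so it describes a shared size and spread.

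The rest of the pathway was read from 7 lists with 78 genes, of which 68 were tested. Of these, 17 were called higher and 16 lower, 48.5% of those tested beside 25.6% of all genes. The lists were chosen with earlier results of these data known, so these shares describe the listed genes only. Among the other synthesis enzymes listed, UROS and PPOX gave no call and ALAS2 was not tested. ALAS2, the enzyme of red blood cell precursors, had 0 reads in 5 libraries and 3 reads in RSL3 replicate 3. UROS had 2958 ± 42.9 normalized counts in control and 2801 ± 124 in RSL3-treated cells (SD, n = 3, edgeR adjusted p = 0.145), and PPOX had 351 ± 19.9 and 302 ± 30.1 (edgeR adjusted p = 0.113). The unadjusted p was under 0.05 in 1 of them, PPOX (0.0378), and DESeq2 also called neither (adjusted p = 0.254 in UROS and 0.206 in PPOX). Control and treated libraries were fully apart in both, as in 38.6% of all genes tested. Exons of other genes, chiefly B4GALT3, cover 26.2% of the exon bases of PPOX.

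The genes for what breakdown releases moved one way. All 4 tested of 6 were higher, beside 12.9% of all genes tested. FTL and FTH1, the ferritin chains that store iron, rose by 28.1% and 22.8%. FTL had 94418 ± 4567 normalized counts in control and 120980 ± 1720 in RSL3-treated cells (SD, n = 3, log2 fold change 0.36, edgeR adjusted p = 8.88e-09). FTH1 had a log2 fold change of 0.30 (edgeR adjusted p = 4.63e-08), and exons of BEST1 cover 63.2% of its exon bases. ABCC2, which exports bilirubin conjugates in liver, rose from 3395 ± 67.8 to 4481 ± 87.8 (normalized counts, SD, n = 3), a log2 fold change of 0.40 (edgeR adjusted p = 1.43e-08). ABCC1, a related exporter, rose from 206 ± 5.61 to 274 ± 4.79 (SD, n = 3, log2 fold change 0.41, edgeR adjusted p = 0.00568, and 0.0864 in DESeq2 with 2 surrogate variables). UGT1A1, which conjugates bilirubin and shares 50.1% of its exon bases with other UGT1A genes, was listed at 0 reads in every library, and the iron exporter SLC40A1 had at most 14.

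Of 13 genes that control the heme enzymes, 7 were called higher and 1 lower, beside 12.9% higher and 12.7% lower of all genes tested. The small MAF genes MAFF and MAFG, whose proteins pair with NRF2 or BACH1 on DNA, had log2 fold changes of 0.53 (edgeR adjusted p = 2.39e-10) and 0.29 (9.67e-07). MAFF went from 5214 ± 94.0 to 7529 ± 255 normalized counts (SD, n = 3). NR1D1 and NR1D2, nuclear receptors that bind heme, rose by 24.5% and 22.7% (edgeR adjusted p = 8.79e-06 and 2.50e-07), and THRA covers 18.0% of the exon bases of NR1D1. The other genes called in this list were chosen for mention after their values were seen: MAFK (log2 fold change 0.32), KEAP1 (0.23) and BACH1 (0.12) were higher, and PPARGC1A, a coactivator that drives ALAS1 in liver, fell by 25.1% (log2 fold change -0.42, edgeR adjusted p = 0.000160). NFE2L2, which encodes NRF2 and was also named after its values were seen, was not called (log2 fold change 0.01, edgeR adjusted p = 0.816).

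Heme proteins were mostly lower among those called. Of 26 tested, 10 were lower and 2 higher, which is 38.5% lower beside 12.7% of all genes tested. STEAP3, a ferrireductase, fell by 29.6% (log2 fold change -0.51, edgeR adjusted p = 5.04e-08). CAT, which encodes catalase, fell by 28.3% (log2 fold change -0.48, edgeR adjusted p = 5.85e-07). CYP1B1, a cytochrome P450, fell by 26.5% (log2 fold change -0.44, edgeR adjusted p = 2.04e-08). CYP1B1 shares 13.0% of its exon bases with RMDN2 and antisense genes, and STEAP3 also overlaps an antisense gene. MT-CYB, the mitochondrial cytochrome b gene, had 12344 ± 1720 normalized counts in control and 9368 ± 390 in RSL3-treated cells (SD, n = 3, log2 fold change -0.40, edgeR adjusted p = 5.07e-05), a wide spread in the control group. The 2 genes called higher, CYP20A1 and CYBA, were named after their values were seen and had log2 fold changes of 0.15 and 0.11.

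**Figure D5:**
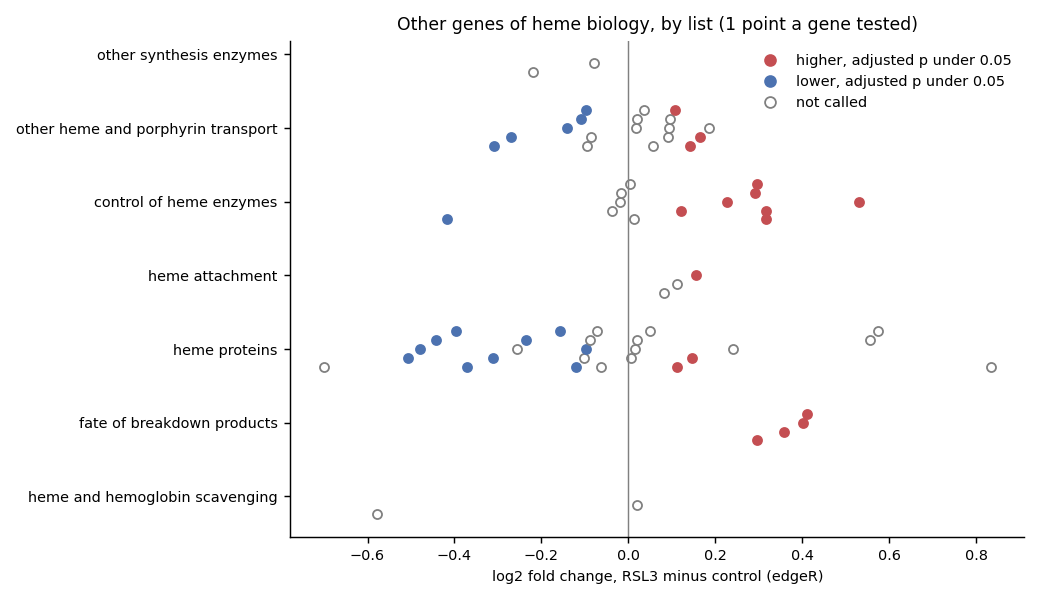
Log2 fold change, RSL3 minus control, of the genes tested in each of 7 lists of heme biology, 1 point a gene. Filled points have an adjusted p under 0.05, in red where higher and in blue where lower. The 4 genes tested for the fate of breakdown products all lie between 0.30 and 0.41, and heme proteins have 10 blue and 2 red points.

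Of 18 genes of heme and porphyrin transport other than SLC48A1, 3 were called higher and 5 lower (27.8%), beside 12.9% and 12.7% of all genes tested. PGRMC1, a heme-binding membrane protein gene, rose by 12.2% (log2 fold change 0.17, edgeR adjusted p = 0.000509), and HEBP1 and SLC25A38, the latter a mitochondrial carrier that feeds glycine to ALAS1, were the other 2 higher genes (0.11 and 0.14). ABCC5, FLVCR2 and TSPO were lower, with log2 fold changes of -0.27, -0.31 and -0.14 (edgeR adjusted p = 0.00403, 0.0173 and 0.0147), as were SLC25A39 (-0.11) and PGRMC2 (-0.10). HEBP1, SLC25A38, SLC25A39 and PGRMC2 were chosen for mention after their values were seen. FLVCR2 shares 27.6% of its exon bases with FLVCR2-AS1 and TTLL5, and its call was lost in DESeq2 with 1 or 2 surrogate variables (adjusted p = 0.0709 and 0.175) and without control replicate 3 (0.0612), RSL3 replicate 2 (0.0546) or RSL3 replicate 3 (0.0700). That of ABCC5 was lost in DESeq2 with 2 surrogate variables (0.0572). The libraries of TSPO overlapped between the groups, and its call was lost without control replicate 1 (adjusted p = 0.106) or RSL3 replicate 2 (0.0906) and in DESeq2 with 2 surrogate variables (0.0777). Of the 3 genes that attach heme to cytochromes or convert it, HCCS was higher (0.16, edgeR adjusted p = 0.0225) and COX15 (0.08, adjusted p = 0.121) and COX10 (0.11, adjusted p = 0.173) were not called. The call of HCCS was lost in DESeq2 with 1 or 2 surrogate variables (adjusted p = 0.0655 and 0.176) and without control replicate 1 (0.0731), RSL3 replicate 1 (0.147) or RSL3 replicate 2 (0.0531). Of the scavenging genes 2 were tested, LRP1 and CD163, and HPX and HP were under the filter on low counts. Neither LRP1 nor CD163 was called by edgeR or DESeq2, and neither had an unadjusted p under 0.05 in edgeR. LRP1, the receptor for heme bound to hemopexin, had 46262 ± 2751 normalized counts in control and 46906 ± 2179 in RSL3-treated cells (SD, n = 3, log2 fold change 0.02, 95% interval -0.06 to 0.10, edgeR adjusted p = 0.756). CD163, the hemoglobin scavenger receptor of macrophages, had at most 19 reads (edgeR adjusted p = 0.504), the hemopexin gene HPX at most 9 and the haptoglobin gene HP at most 1.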

How the data were processed

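U87MG cells were profiled by RNA-seq in 6 libraries, 3 control and 3 RSL3-treated, the treatment time being known from a figure legend and not from the labels. The authors trimmed reads with Trimmomatic 0.36 and Fastp, used HISAT2 for alignment (GRCh38.p4) and HTSeq 0.6.1p1 for counting over exons without regard to strand. The values the authors deposited are raw counts per gene, 1 file a library. The annotation release is not given in the sources used here. Symbols, positions and lengths come from GENCODE v44 (GRCh38), which named 56434 of the 65988 identifiers.

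Counts were tested in R 4.3.3 with edgeR 4.0.16 (filterByExpr, minimum count 10, TMM, quasi-likelihood F test, Benjamini-Hochberg over the 16105 genes tested, threshold 0.05, no covariates). Normalized counts are counts over effective library size times the mean of those sizes, and n is libraries. Alternatives were other scalings and filters, DESeq2 1.42.0 with 0, 1 or 2 surrogate variables (sva 3.50.0), the replicate number as a block, each library left out, and stricter thresholds. The study itself used DESeq2 after a surrogate variable analysis meant to correct hidden batch effects. It does not give the number of surrogate variables, so the DESeq2 fits with 1 or 2 are the nearest to its test. 1 list gene is not reported here. The members, and the lists, were chosen with earlier results of these data known. Beside the members, each list's 4 genes of lowest p (all genes of lists of up to 4) were named, and the 5 most like HMOX1. On simulated data, edgeR called 88.0% of 200 changed genes among 15859 and 0.0255% of the others, for RSL3 against control. These shares are not split by size of change, and in the real data 4123 of the 16105 genes tested were called. How often edgeR calls log2 fold changes as small as those of ALAS1 (0.14) or CPOX (-0.15) was not tested. Libraries of a group differed beyond sampling noise (chi-square per degree of freedom 2.45 to 5.52).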

Additional observations from a re-analysis of the deposited data

How the results depend on the processing

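HMOX1, SLC48A1, BLVRA, BLVRB and ALAD kept their direction and their call in all 14 alternatives run on each, and with each library left out HMOX1 stayed between 0.89 and 1.04 and SLC48A1 between 0.55 and 0.63 (log2). The 7 called members were 5 to 7 with a library left out, and the 3 synthesis calls 1 to 3 (1 without control replicate 3 or RSL3 replicate 2), 1 in DESeq2 with 2 surrogate variables and 1 at an adjusted p under 0.01. A log2 fold change of 0.5 or more in either direction was met by 2 members, both in breakdown and transport (2), and 0 synthesis genes. For the 7 pathway lists, 33 calls became 26 to 31 with a library left out, 31, 28 and 17 in DESeq2 with 0, 1 and 2 surrogate variables, 20 at an adjusted p under 0.01 and 2 at the fold threshold. ALAS1 was not called in DESeq2 with 2 surrogate variables (log2 fold change 0.14) or in 3 leave-outs (range over leave-outs 0.10 to 0.17). CPOX was not called in DESeq2 with 0, 1 or 2 surrogate variables (-0.14 each) or in 3 leave-outs (range -0.17 to -0.13). FECH changed sign without control replicate 3 (0.0056) or RSL3 replicate 2 (0.020; range -0.037 to 0.020), LRP1 without control replicate 1 (-0.029) or RSL3 replicate 3 (-0.01; range -0.029 to 0.052), and HMOX1 to HMOX2 without RSL3 replicate 2 (-0.24; range -0.24 to 1.15). The cause of these changes was not tested. Over all genes, edgeR made 4123 calls and DESeq2 made 3558, 3193 and 2268 with 0, 1 and 2 surrogate variables. The last 3 are 22.53%, 21.08% and 15.63% of the genes tested in each. With a library left out, edgeR made 3081 to 3924 calls over all genes. Calls over all genes at an adjusted p under 0.01 or at the fold threshold are not given here. The member and pathway counts at those thresholds therefore have no background to be set beside.

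Same-numbered control and RSL3-treated libraries deviated together with correlations of 0.0614, 0.113 and 0.191 over 11464 genes. Libraries of different number had correlations of -0.147 to 0.0419, and every library correlated best with its own number. Deviations were taken from the mean of each group, which ties these correlations to each other, so they are not separate observations. The main fit did not take the numbers as pairs, and whether they mark pairs was not tested. With the replicate block, the count of members called was 7 again, that of pathway genes 36, and the calls over all genes were 4633. Low counts limit what can be read of ALAS2, HPX, HP, CD163 and the marker genes at or near 0.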
